A study of Homo sapiens with 6 samples.

Results

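The genes described here are 10 genes of the cadherin switch and of epithelial-mesenchymal transition (EMT), namely CDH1, CDH2, CDH3, VIM, FN1, ZEB1, ZEB2, SNAI1, SNAI2 and TWIST1, out of 62703 genes in the deposited table. They were chosen by name with the fall of CDH2 already known, so CDH2 was selected on the values below and is described without a test, and tests of the other 9 support nothing about the choice. The question was whether the loss of CDH2 came with a full or a partial epithelial shift. RNA-seq covered 3 libraries of DKK1-SE+/+ cells, labelled wild type, and 3 of DKK1-SE-/- cells, all from PANC-1, an established line of human pancreatic carcinoma. In the DKK1-SE-/- cells, which the study called homozygous by PCR, Cas9 had removed e1. This is a component enhancer of the super-enhancer of DKK1, which encodes a secreted Wnt inhibitor. These cells are 1 clone, grown after puromycin selection and limiting dilution, so the effect of the deletion and changes that arose in cloning cannot be told apart, and whether the DKK1-SE+/+ cells were cloned is not given in the sources used here. The replicates are labelled biological, with nothing on how cultures were separated, so p-values measure the spread between these samples. Values by library are given in the order of replicates 1, 2 and 3. Total expected counts were 21822314, 16475810 and 18803154 in DKK1-SE+/+ libraries against 17359835, 20098086 and 17804764 in DKK1-SE-/- libraries.

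Cadherins are calcium-dependent adhesion proteins that join neighbouring cells and bind catenins on their cytoplasmic side. In EMT, cells lose E-cadherin and epithelial junctions and gain N-cadherin, vimentin and fibronectin, under transcription factors of the ZEB, SNAIL and TWIST families. Cells that carry genes of both states are described as partial EMT.

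As a check of the labels, DKK1 had a CPM (counts scaled to library size with TMM factors) of 205, 191 and 175 in DKK1-SE+/+ libraries against 65.7, 76.9 and 66.5 in DKK1-SE-/- libraries. The groups did not overlap, and the log2 fold change of DKK1-SE-/- over DKK1-SE+/+ was -1.45 (SE 0.11, edgeR adjusted p = 6.16e-06). Libraries of the clone differed from each other in base composition. Across genes, which are not independent replicates, the deviation of a library from the other replicates of its group had a Spearman's rho with gene GC content of 0.64, 0.04 and -0.63 in DKK1-SE-/- libraries against -0.20, -0.19 and 0.36 in DKK1-SE+/+ libraries. The log2 fold changes of 15167 genes correlated with GC content too (rho = 0.40). The part of this in the results was not tested beyond the values given below without single libraries or with a GC-content offset.

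CDH2 (ENSG00000170558, minus strand of chr18:27932879-28177946, hg38) encodes N-cadherin, the cadherin of neural and mesenchymal cells. Its CPM was 53.3, 51.2 and 51.8 in DKK1-SE+/+ libraries against 3.13, 3.57 and 4.12 in DKK1-SE-/- libraries. Every library of the clone was far below every DKK1-SE+/+ library, and replicates within each group were close. The log2 fold change was -3.85 (SE 0.14), which is 14.4-fold lower, and was -3.78 without DKK1-SE-/- replicate 1 and -3.97 without replicate 3. In TPM, which is scaled to transcript length as well as to library size, CDH2 was at 19.3 ± 0.210 in DKK1-SE+/+ and 1.37 ± 0.262 in DKK1-SE-/- cells (SD, n = 3). The clone kept 51, 70 and 74 CDH2 counts, so the transcript was still detected. In bulk RNA, fewer cells that express a gene and less RNA per cell cannot be told apart.

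CDH2 and ZEB1 were the members with a log2 fold change under -1.2, so stretches of their promoters are shown, from 250 bases before to 50 after a start, as listed by RefSeq for GRCh38.p14. Of the 10 genes, 5 matched the RefSeq promoters (CDH2, VIM, FN1, ZEB1 and ZEB2), with 12 starts, and CDH1, CDH3, SNAI1, SNAI2 and TWIST1 had no entry in the promoter table used here. Both strands were searched for the E-box CAGGTG, a sequence bound by ZEB and SNAIL factors, and for the AP-1 sequence TGANTCA. The E-box was in 20.6% of 35116 RefSeq promoters of this length and the AP-1 letters in 7.71%, beside 2 and 1 of the 12 windows of these genes. The CDH2 window nearest the gene's 5′ end, chr18:28177081-28177380 on the minus strand, held neither motif. Another, chr18:28036592-28036891 on the minus strand, lies at a start within the gene and held 1 AP-1 match. Of 7 ZEB1 windows the one with most E-boxes is shown, chr10:31318966-31319265 on the plus strand, which held 3, while 1 other held 1 and 5 held none. Capitals mark the matches, which describe the letters only.
CDH2 nearest the 5′ end: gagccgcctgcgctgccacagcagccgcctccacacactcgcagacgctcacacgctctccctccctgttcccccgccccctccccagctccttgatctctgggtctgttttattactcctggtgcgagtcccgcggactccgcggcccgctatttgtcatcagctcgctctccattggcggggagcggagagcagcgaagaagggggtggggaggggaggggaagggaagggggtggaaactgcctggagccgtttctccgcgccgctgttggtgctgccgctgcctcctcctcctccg
CDH2 internal start: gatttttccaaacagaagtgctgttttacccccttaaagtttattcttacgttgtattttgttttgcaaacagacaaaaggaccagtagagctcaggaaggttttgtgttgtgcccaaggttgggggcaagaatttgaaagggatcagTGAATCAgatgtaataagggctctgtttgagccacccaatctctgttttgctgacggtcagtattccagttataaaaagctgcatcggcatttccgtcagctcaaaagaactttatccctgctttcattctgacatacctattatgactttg
ZEB1: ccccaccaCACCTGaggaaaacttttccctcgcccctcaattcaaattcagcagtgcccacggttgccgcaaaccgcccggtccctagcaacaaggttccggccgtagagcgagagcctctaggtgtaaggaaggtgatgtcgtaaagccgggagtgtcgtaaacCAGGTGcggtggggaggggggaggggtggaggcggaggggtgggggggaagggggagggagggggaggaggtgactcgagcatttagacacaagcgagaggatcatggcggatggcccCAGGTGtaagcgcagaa

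Cadherin transcripts were summed over 23 genes, CDH1, CDH2, CDH3 and 20 other genes with CDH symbols. Per kb of deposited gene length, a scale added after seeing the data, their summed CPM was 17.5, 17.0 and 17.05 in DKK1-SE+/+ libraries against 8.38, 8.01 and 8.38 in the clone. The sum, which includes CDH2, was lower in every library of the clone. The 20 other genes alone went the opposite way in TPM. Their summed TPM was 10.7, 7.53 and 8.27 in DKK1-SE+/+ libraries against 13.8, 12.1 and 12.7 in the clone. Of the summed CPM per kb over the 23 genes, CDH2 made up 75.6% ± 0.438 in DKK1-SE+/+ and 10.9% ± 1.47 in DKK1-SE-/- cells (SD, n = 3). In TPM its percentage was 60.8, 65.5 and 64.4 in DKK1-SE+/+ libraries against 6.08, 8.71 and 8.49 in the clone. CDH8 had a TPM of 3.52 ± 1.83 in DKK1-SE+/+ and 4.64 ± 0.734 in DKK1-SE-/- cells (SD, n = 3), from 6 to 27 counts per library. The largest part in the clone on the scale per kb was CDH24, a type II cadherin, at 39.4% ± 3.24 of the summed CPM per kb (SD, n = 3) against 13.3% ± 0.473 in DKK1-SE+/+ cells. In TPM the largest part in the clone was CDH8, at 26.3% ± 4.675 of the summed TPM, followed by CDH24 at 22.3% ± 2.11 (SD, n = 3), while per kb CDH8 made up 1.58% ± 0.303. Count and TPM together imply a CDH8 transcript of 384 to 426 bases, beside a deposited gene length of 9316, and which length is right was not tested.

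**Figure D1:**
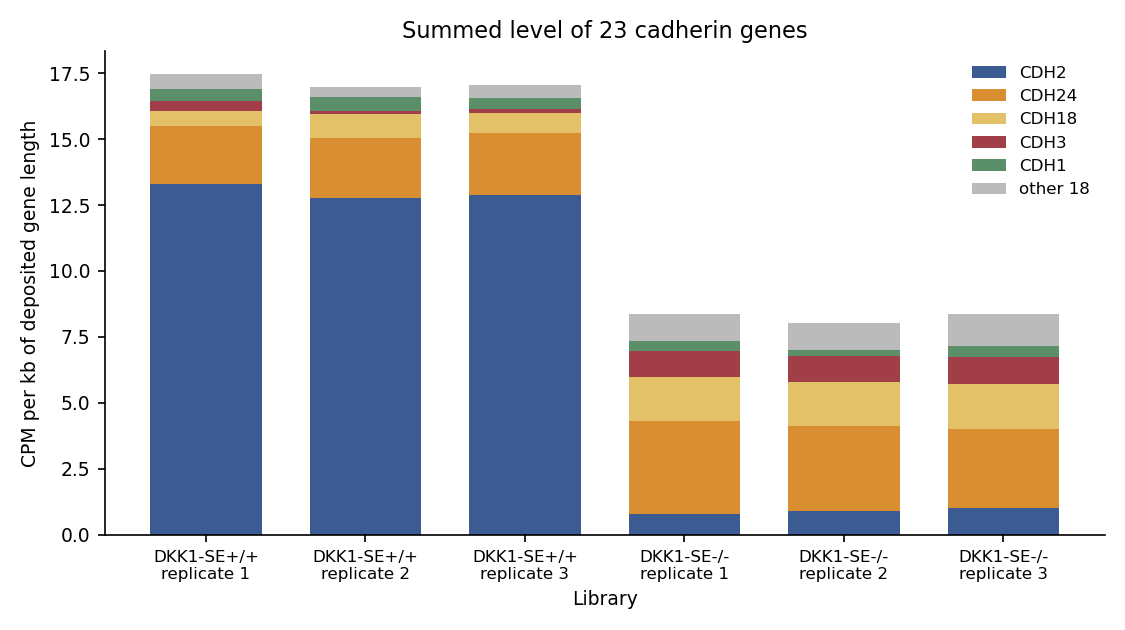
Stacked bars give the CPM per kb of 23 cadherin genes in each of 6 PANC-1 libraries, coloured by gene. CDH2 makes up most of each DKK1-SE+/+ bar, and the DKK1-SE-/- bars are lower, between 8.01 and 8.38, with CDH24, CDH18 and CDH3 each above CDH2.

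CDH1 (ENSG00000039068, plus strand of chr16:68737292-68835537) encodes E-cadherin, the main cadherin of epithelial adherens junctions. It had counts of 48, 41 and 36 in DKK1-SE+/+ libraries against 28, 20 and 37 in DKK1-SE-/- libraries. It was low in every library, and the groups overlapped. The log2 fold change was -0.43 with a 95% interval of -1.13 to 0.27 (edgeR adjusted p = 0.307), which includes 0. It was -0.18 without DKK1-SE-/- replicate 2, -0.68 without replicate 3 and -0.24 in limma on log2(TPM + 1). In TPM it ran from 0.42 to 2.67 within the clone alone. Per kb of counts, the ratio of CDH2 to CDH1 was 30.1, 25.1 and 32.9 in DKK1-SE+/+ libraries and 2.18, 4.19 and 2.40 in the clone. In TPM the ratio was 15.8, 13.6 and 9.09 in DKK1-SE+/+ libraries and 2.57, 1.48 and 0.596 in the clone, so the scales differed, and in DKK1-SE-/- replicate 3 CDH1 was above CDH2 in TPM and below it per kb.

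CDH3 (ENSG00000062038, plus strand of chr16:68636189-68727468) encodes P-cadherin, found in basal epithelium, and ends 9.82 kb before CDH1 starts. Its counts were 37, 9 and 14 in DKK1-SE+/+ libraries against 73, 86 and 83 in DKK1-SE-/- libraries. The clone was higher in every library, and the DKK1-SE+/+ libraries varied more. The log2 fold change was 2.16 (SE 0.35, edgeR adjusted p = 0.000759), and was 2.77 without DKK1-SE+/+ replicate 1, the highest of its group. In limma on log2(TPM + 1) it was 0.90 on that scale (adjusted p = 0.0155, within 4.7e-11 to 0.0376 over the alternatives). The ratio of CDH2 to CDH3 per kb was 36.2, 106 and 78.3 in DKK1-SE+/+ libraries and 0.774, 0.902 and 0.988 in the clone. In TPM it was 28.4, 16.3 and 79.9 in DKK1-SE+/+ libraries and 0.434, 0.699 and 0.893 in the clone, so the scales differed in size, and the ratio in the clone was under 1 on both.

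Of the 20 other cadherins, 4 passed the filter on low counts, 2 were called higher and 0 lower (0 also at an unadjusted p under 0.05 and in DESeq2 and limma), beside 19.8% and 19.5% of all tested genes, with a median log2 fold change of 0.54 beside 0.03 over all tested genes, and 12 stayed under 10 counts in every library. CDH18, a type II cadherin, had a CPM of 2.10 ± 0.488 in DKK1-SE+/+ and 4.71 ± 0.0386 in DKK1-SE-/- cells (SD, n = 3), and rose by 1.18 on the log2 scale (SE 0.23, edgeR adjusted p = 0.00255). CDH24 rose by 0.51 on the log2 scale (SE 0.15, edgeR adjusted p = 0.019), but its call held in only 4 of 16 alternatives (adjusted p 0.0117 to 0.442), with an adjusted p of 0.0925, 0.0682 and 0.0567 without DKK1-SE+/+ replicates 1, 2 and 3 and of 0.0504 and 0.0517 without DKK1-SE-/- replicates 1 and 2. CDH8, the most abundant of the list by TPM, had 0.57 (SE 0.43, edgeR adjusted p = 0.318). Without DKK1-SE+/+ replicate 2 or replicate 3, 1 cadherin was called higher.

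VIM (ENSG00000026025, plus strand of chr10:17228241-17237593) encodes vimentin, the intermediate filament of mesenchymal cells. Its TPM was 3746, 4210.3 and 4522 in DKK1-SE+/+ libraries against 2819, 2534 and 2700.4 in DKK1-SE-/- libraries. The groups did not overlap, yet VIM had the highest TPM of the 10 genes in every library of the clone too. The log2 fold change was -0.47 (SE 0.11, edgeR adjusted p = 0.00597). FN1 (ENSG00000115414, minus strand of chr2:215360440-215436073) encodes fibronectin, a matrix glycoprotein that mesenchymal cells secrete. Its counts were 31, 17 and 15 in DKK1-SE+/+ libraries against 103, 137 and 136 in DKK1-SE-/- libraries. Opposite in direction to CDH2 and VIM, FN1 was higher in every library of the clone, with a log2 fold change of 2.70 (SE 0.24, edgeR adjusted p = 1.87e-05). In TPM the groups overlapped (1.15, 1.53 and 2.06 in DKK1-SE+/+ libraries against 1.42, 1.95 and 3.76 in DKK1-SE-/- libraries), and limma on log2(TPM + 1) gave 0.34 on that scale (adjusted p = 0.353, within 2.25e-21 to 0.404 over the alternatives). The transcript length that count and TPM together imply was 2017, 1132 and 652 bases in DKK1-SE+/+ and 6607, 5363 and 3391 bases in DKK1-SE-/- libraries, so TPM divides the FN1 counts by another length in each library. Which lengths are right was not tested.

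ZEB1 (ENSG00000148516, plus strand of chr10:31318495-31529814) encodes a zinc finger repressor of CDH1. Its CPM was 34.2, 33.5 and 37.0 in DKK1-SE+/+ libraries against 10.75, 15.3 and 17.2 in DKK1-SE-/- libraries. The groups did not overlap, and DKK1-SE-/- replicate 1, the library with the highest rho to GC content, was lowest. The log2 fold change was -1.27 (SE 0.16, edgeR adjusted p = 0.000204), and was -1.12 without that library, -1.44 without replicate 3 and -0.91 with the GC-content offset. ZEB2 (ENSG00000169554, minus strand of chr2:144364364-144521057) encodes its paralog. Its CPM was 12.8, 12.3 and 9.94 in DKK1-SE+/+ libraries against 8.85, 12.1 and 16.1 in DKK1-SE-/- libraries. The groups overlapped. The log2 fold change of 0.08 had a 95% interval of -0.37 to 0.53 (edgeR adjusted p = 0.784). It was -0.18 without DKK1-SE-/- replicate 3, -0.03 without DKK1-SE+/+ replicate 3 and 0.43 with the GC-content offset (adjusted p = 0.0252, within 0.0252 to 0.963 over the alternatives), so ZEB2 had no settled direction.

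SNAI1 (ENSG00000124216, plus strand of chr20:49982980-49988886) encodes Snail, a repressor that acts early in EMT. Its CPM was 9.15, 10.4 and 9.21 in DKK1-SE+/+ libraries against 17.1, 13.7 and 12.6 in DKK1-SE-/- libraries. It was higher in every library of the clone, with a log2 fold change of 0.59 (SE 0.16, edgeR adjusted p = 0.0115). The call was lost without DKK1-SE+/+ replicate 1 (0.53, adjusted p = 0.0634), in limma on TPM (0.39 with a pseudocount of 1) and with GC-content offset and replicate block together, within an adjusted p of 0.00454 to 0.0862 over the alternatives. With the GC-content offset the log2 fold change was 0.36, with or without the block. SNAI2 (ENSG00000019549, minus strand of chr8:48917598-48921740) encodes Slug, the related repressor. Its counts were 94, 67 and 92 in DKK1-SE+/+ libraries against 59, 48 and 59 in DKK1-SE-/- libraries. The groups did not overlap in CPM, but the log2 fold change of -0.48 had a 95% interval of -0.96 to 0.01 (edgeR adjusted p = 0.11), and was -0.24 with the GC-content offset (adjusted p = 0.436, within 0.0706 to 0.458 over the alternatives). TWIST1 (ENSG00000122691, minus strand of chr7:19020991-19117636) encodes a basic helix-loop-helix factor. It had counts of 0, 0 and 0 in DKK1-SE+/+ libraries against 9, 0 and 3 in DKK1-SE-/- libraries and did not pass the filter on low counts. A count of 0 allows up to 3 counts in a library, a limit that covers counting error only.

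Of the 9 genes other than CDH2, 8 were tested, 3 were called higher (CDH3, FN1 and SNAI1) and 2 lower (VIM and ZEB1) at an edgeR adjusted p under 0.05, beside 19.8% higher and 19.5% lower of all 15179 tested genes. Since the genes were proposed with this contrast known, nothing is read from the comparison. Differentially expressed genes (DEGs) were also taken at an unadjusted p under 0.05 with a log2 fold change past 1.2 in size, where the study worded its limit of 1.2 as a fold change. Of the same 9 genes CDH3 and FN1 were higher and ZEB1 lower, beside 4.96% and 3.7% of all tested genes, and with 1.2 as a linear fold change SNAI1 was higher and VIM lower too, beside 24.3% and 23.3% of all tested genes. Without DKK1-SE+/+ replicate 1, 2 genes were called higher, and without DKK1-SE-/- replicate 1, ZEB1 was not past that limit (-1.12). Over all genes, 3013 were called higher and 2959 lower, against 1491 and 2670 with limma on log2(TPM + 1), and 2001 were higher without DKK1-SE+/+ replicate 1.

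By mean TPM in DKK1-SE+/+ cells the order was VIM, CDH2 (19.3), ZEB1 (9.52), SNAI1 (8.58), ZEB2 (4.46), SNAI2 (3.03), CDH1 (1.59), FN1 (1.58), CDH3 (0.703) and TWIST1 (0). Libraries of ZEB1 and SNAI1 overlapped in TPM, as did those of CDH1 with FN1 and of FN1 with CDH3. In the clone the order was VIM, SNAI1 (11.6), ZEB2, ZEB1 (3.77), FN1 (2.38), CDH3 (2.11), SNAI2 (2.11), CDH2 (1.37), CDH1 (1.35) and TWIST1 (0.380). Neighbours in that order from ZEB2 to SNAI2 overlapped, as did CDH2, CDH1 and TWIST1 in turn, while SNAI2 and CDH2 did not.

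Genes around each member were read against all tested genes, of which 19.8% were called higher and 19.5% lower. The median of all tested genes was 0.03 on the log2 scale. Within 5 Mb of the SNAI1 start, 64 other genes were tested, of which 58 had a log2 fold change above 0, 34 were called higher and 1 lower, and their median was 0.55, beside 0.59 for SNAI1. Around VIM, 31 of 36 genes were below 0 and 20 were called lower, with a median of -0.60 beside -0.47 for VIM. VIM and SNAI1 thus lay among the values of their neighbours. Around ZEB1, 17 of 31 genes were called lower, with a median of -0.38, and 3 of the 31 were below ZEB1.

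CDH2, CDH3 and FN1 lay at the edge of their neighbours' values. The 25 tested genes within 5 Mb of CDH2 had a median of -0.26 and all were above CDH2, and no tested gene lay within 1 Mb. The 123 tested genes around CDH3 had a median of 0.15, and 1 of them was higher than CDH3. CDH1, in nearly the same neighbourhood, was below 113 of its 123 neighbours. The 53 genes around FN1 had a median of -0.09, with 15 called lower and 3 higher (19.5% and 19.8% over all tested genes), and all were below FN1. SNAI2 had 10 tested neighbours with a median of 0.24, ZEB2 had 8 with -0.29 and TWIST1 had 33 with -0.36. The part of a gene's neighbourhood in its change was not tested.

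**Figure D2:**
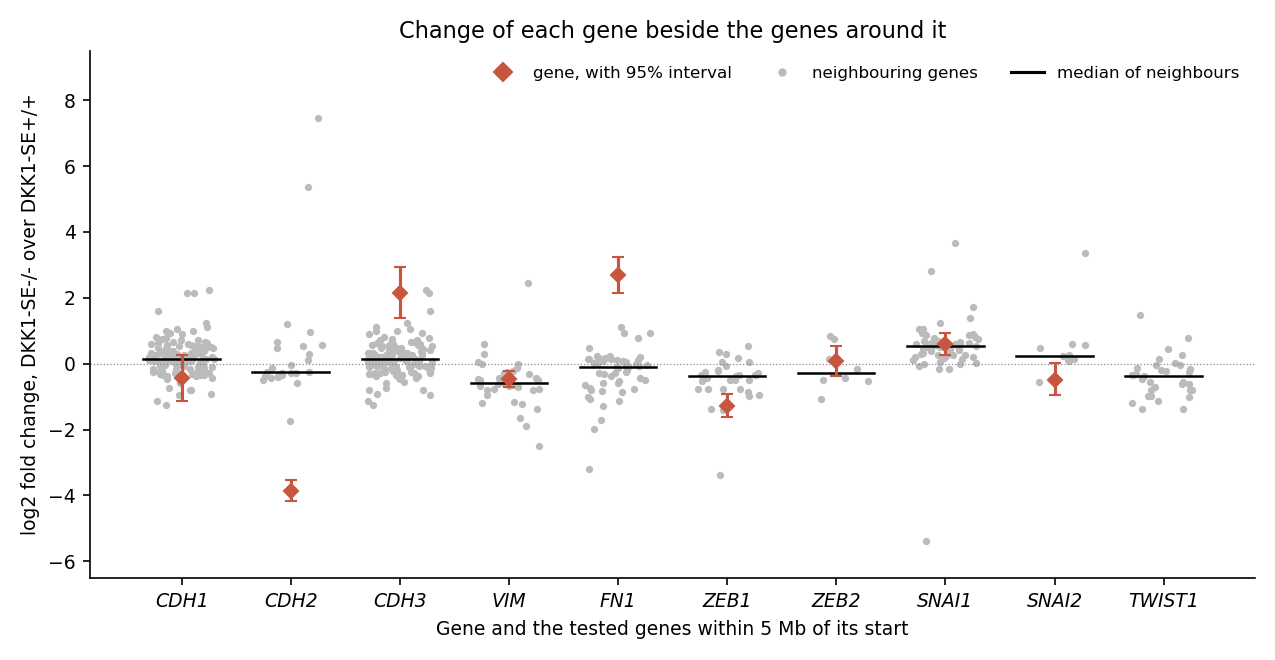
Diamonds give the log2 fold change of each gene with its 95% interval, grey points the tested genes within 5 Mb of its start, and black lines their median. SNAI1 (0.59) lies near the median of its neighbours (0.55), while CDH2 (-3.85) lies below its 25 neighbours and FN1 (2.70) above its 53. TWIST1 was not tested.

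Of 21 annotated genes that overlap a member, 12 had 0 counts in every library and 3 were tested. VIM-AS1, on the other strand of VIM, had a log2 fold change of -0.69 (SE 0.41, edgeR adjusted p = 0.206), and ENSG00000234961, also opposite VIM, had -1.21 (SE 0.46, edgeR adjusted p = 0.0583). ZEB1-AS1, opposite the ZEB1 start, had 34 to 38 counts in DKK1-SE+/+ and 30 to 68 in DKK1-SE-/- libraries, and a log2 fold change of 0.55 (SE 0.30, edgeR adjusted p = 0.167). The kit keeps strand, but whether the counting used it is not given in the sources used here, so reads of a gene and its antisense partner cannot be told apart.

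Catenins bind cadherins, and some catenins and partners link them to actin. The list held both, along with nectins, which are adhesion receptors. Of its 16 genes, 12 were tested, 3 were higher and 1 lower, beside 19.8% and 19.5% of all tested genes, with a median log2 fold change of 0.09. JUP, which encodes plakoglobin of adherens junctions and desmosomes, had a CPM of 128 ± 12.5 in DKK1-SE+/+ and 236 ± 39.6 in DKK1-SE-/- cells (SD, n = 3), a log2 fold change of 0.89 (SE 0.13, edgeR adjusted p = 0.000518). VCL, which encodes vinculin and was the most abundant of these by TPM, rose by 0.53 (SE 0.09, edgeR adjusted p = 0.00124). NECTIN3, an adhesion receptor named after its value was seen, was the other gene called higher (0.96), a call lost in limma on TPM (adjusted p 1.13e-05 to 0.117 over the alternatives). CTNNB1, which encodes beta-catenin of adherens junctions and Wnt signalling, had a CPM of 315 ± 19.7 in DKK1-SE+/+ and 203 ± 23.3 in DKK1-SE-/- cells (SD, n = 3), and fell by 0.64 on the log2 scale (SE 0.11, edgeR adjusted p = 0.00131). Without DKK1-SE-/- replicate 3, 4 genes were called lower.

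Epithelial junction and surface genes differed in both directions. Of 35 genes, 28 were tested, 10 were higher and 9 lower, beside 19.8% and 19.5% of all tested genes, with a median log2 fold change of 0.17 and a range of -2.02 to 1.83. KRT19, a keratin of duct epithelium, had a TPM of 48.2, 53.8 and 59.8 in DKK1-SE+/+ libraries against 198, 172 and 146 in DKK1-SE-/- libraries. It was higher in every library of the clone, with a log2 fold change of 1.83 (SE 0.16, edgeR adjusted p = 1.4e-05). CLDN1, a tight junction claudin, rose by 1.36 (SE 0.11, edgeR adjusted p = 9.02e-06), and KRT8, a keratin of simple epithelium and the most abundant of the list, by 0.86 (SE 0.13, edgeR adjusted p = 0.000518). PKP2, a desmosomal plakophilin, had a CPM of 13.5, 14.6 and 15.3 in DKK1-SE+/+ libraries against 3.07, 3.775 and 3.78 in DKK1-SE-/- libraries. It was lower in every library of the clone, with a log2 fold change of -2.02 (SE 0.16, edgeR adjusted p = 6.75e-06), and CLDN7, another claudin, had -1.92 (SE 0.18, edgeR adjusted p = 2.29e-05). The count of lower genes was 5 without DKK1-SE+/+ replicate 2 and 4 without DKK1-SE-/- replicate 2. The summed TPM of the list was 2893, 2941 and 3060 in DKK1-SE+/+ libraries against 4083, 4130 and 3539 in the clone. KRT8 alone had a mean TPM of 1258 over the 6 libraries, so the sum weighs abundant genes most.

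Of 16 epithelial regulators, 8 were tested, 1 was higher (beside 19.8% of all tested genes) and 0 lower by edgeR (2 at an unadjusted p under 0.05, and 0 in DESeq2 and limma, beside 19.5% of all tested genes), with a median of 0.26. The count of lower genes was 1 without DKK1-SE+/+ replicate 1 and 2 without DKK1-SE-/- replicate 1. KLF5, a Krüppel-like factor of epithelial progenitors, had counts of 122, 68 and 104 in DKK1-SE+/+ libraries against 199, 216 and 206 in DKK1-SE-/- libraries. The groups did not overlap, and the log2 fold change was 1.21 (SE 0.17, edgeR adjusted p = 0.000281), a call lost in limma on TPM (adjusted p 1.5e-08 to 0.0931 over the alternatives). KLF4, a related factor and the most abundant of the list, had 0.21 (SE 0.12, edgeR adjusted p = 0.171). The other 8 genes stayed under 10 counts in every library, among them GRHL2, OVOL1, OVOL2 and ESRP1, which act in epithelial transcription and splicing, and MIR200CHG, a host gene of miR-200 family members, which had 0 counts in all 6 libraries. These were named after their values were seen.

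Of 14 other EMT transcription factors, 8 were tested, 1 was higher and 4 lower, beside 19.8% and 19.5% of all tested genes, with a median of -0.33. TWIST2, a paralog of TWIST1, had counts of 8, 6 and 10 in DKK1-SE+/+ libraries against 62, 49 and 40 in DKK1-SE-/- libraries. It was higher in every library of the clone, with a log2 fold change of 2.77 (SE 0.37, edgeR adjusted p = 0.000265). SOX4, an HMG-box factor, fell by 0.74 (SE 0.12, edgeR adjusted p = 0.000729) and FOXC2, a forkhead factor of mesenchyme, fell by 0.73 (SE 0.12, edgeR adjusted p = 0.00103) on the log2 scale. PRRX2, a homeobox gene named after its value was seen, was called lower too (-1.33). HMGA2, a chromatin protein and the most abundant of the list, had -0.04 (SE 0.10, edgeR adjusted p = 0.776).

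Mesenchymal structure and matrix genes differed in both directions as well. Of 31 genes, 24 were tested, 10 were higher and 6 lower, beside 19.8% and 19.5% of all tested genes, with a median of 0.27 and a range of -3.76 to 3.33. The summed TPM of the list was 2996, 2947.5 and 2909 in DKK1-SE+/+ libraries against 2511, 2510 and 2646 in the clone. CD44 alone had a mean TPM of 812 over the 6 libraries. COL1A1, which encodes a chain of type I collagen, had a CPM of 307.5, 339.6 and 369 in DKK1-SE+/+ libraries against 45.2, 36.6 and 40.5 in DKK1-SE-/- libraries. It was lower in every library of the clone, with a log2 fold change of -3.06 (SE 0.12, edgeR adjusted p = 1.35e-07), and TGFBI, a matrix protein induced by TGF-beta, had -1.20 (SE 0.09, edgeR adjusted p = 6.41e-06). SPARC, a collagen-binding matrix protein, had counts of 17, 10 and 16 in DKK1-SE+/+ libraries against 124, 164 and 114 in DKK1-SE-/- libraries. In the opposite direction to COL1A1, its log2 fold change was 3.33 (SE 0.24, edgeR adjusted p = 4.19e-06), and that of TNC, which encodes tenascin C, was 2.47 (SE 0.19, edgeR adjusted p = 6.75e-06). CD44, a hyaluronan receptor and the most abundant of the list, had -0.18 (SE 0.09, edgeR adjusted p = 0.16). On the question of a full or a partial epithelial shift, these RNA values did not show a full one. CDH1 was not called higher (-0.43), VIM kept the highest TPM of the 10 genes, and FN1 was higher in counts though not in TPM. In the epithelial direction, CDH3, KRT19 and CLDN1 were higher. The genes were chosen with results known, so this is a description.

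TGF-beta signals induce EMT, and the list held ligands and receptors of the family and SMADs, which include an inhibitor. All 12 genes were tested, 3 were higher and 4 lower, beside 19.8% and 19.5% of all tested genes, with a median of -0.06. BMP4, a ligand of the family, had counts of 186, 114 and 99 in DKK1-SE+/+ libraries against 7, 4 and 4 in DKK1-SE-/- libraries. Little of it was left in the clone, with a log2 fold change of -4.56 (SE 0.34, edgeR adjusted p = 5.08e-06). TGFBR1, the type I receptor, fell by 1.09 on the log2 scale (SE 0.12, edgeR adjusted p = 6.69e-05). TGFBR3, the co-receptor betaglycan, had a CPM of 0.513 ± 0.359 in DKK1-SE+/+ and 2.43 ± 1.225 in DKK1-SE-/- cells (SD, n = 3), with no overlap, and a log2 fold change of 2.18 (SE 0.52, edgeR adjusted p = 0.00725), a call lost in limma on TPM (adjusted p 1.02e-06 to 0.264 over the alternatives). TGFB1, a main ligand, rose by 0.57 (SE 0.17, edgeR adjusted p = 0.0207), a call held in 8 of 16 alternatives, with an adjusted p of 0.107 and 0.0749 without DKK1-SE+/+ replicates 1 and 2 and of 0.0636 without DKK1-SE-/- replicate 1 (range 0.000325 to 0.143). SMAD3, a signal transducer and the most abundant of the list, rose by 0.28 (SE 0.10, edgeR adjusted p = 0.0399), a call held in 2 of 16 alternatives, with an adjusted p of 0.237, 0.147 and 0.109 without DKK1-SE+/+ replicates 1, 2 and 3 and of 0.101 without DKK1-SE-/- replicate 1 (range 0.0411 to 0.248). TGFB2 (-0.40), a ligand, and SMAD7 (-0.52), an inhibitory SMAD, both named after their values were seen, were the other genes called lower. The TGFB2 call held in 9 of 16 alternatives, with an adjusted p of 0.109 and 0.0818 without DKK1-SE+/+ replicates 2 and 3 and of 0.0568 and 0.0952 without DKK1-SE-/- replicates 1 and 2 (range 0.00105 to 0.109). The SMAD7 call held in 13 of 16, with an adjusted p of 0.0573 and 0.0565 without DKK1-SE+/+ replicates 2 and 3 and of 0.0562 without DKK1-SE-/- replicate 2 (range 9.52e-05 to 0.0573). The count of higher genes was 1 without DKK1-SE+/+ replicate 1 or 2 or DKK1-SE-/- replicate 1, and that of lower genes 2 without DKK1-SE+/+ replicate 2 or 3 or DKK1-SE-/- replicate 2.

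**Figure D3:**
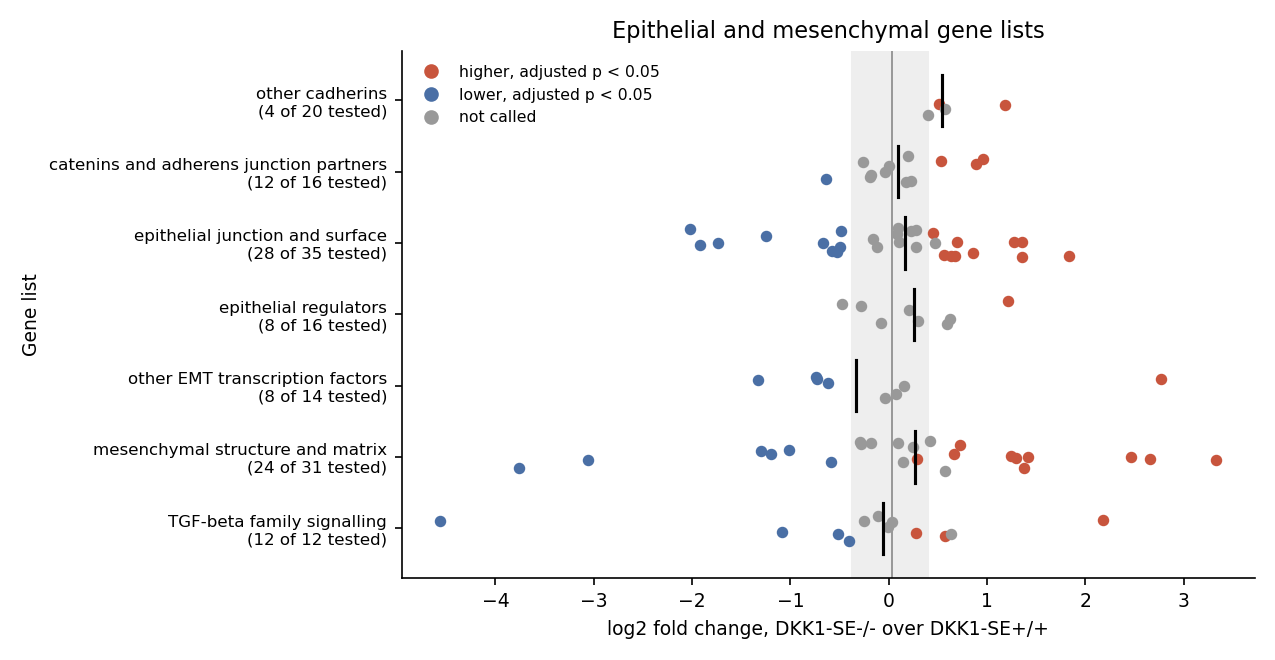
Each point is the log2 fold change of a tested gene of 7 gene lists, coloured by its edgeR call, with black lines at list medians and a grey band from -0.37 to 0.40, the quartiles of all tested genes. Epithelial junction genes run from -2.02 to 1.83 and mesenchymal genes from -3.76 to 3.33, with calls on both sides of 0.

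Markers of cell types were read in the same libraries, where 19.8% of all tested genes were called higher and 19.5% lower. Of 9 duct epithelium markers, 7 were tested, 4 were higher (KRT8, KRT18, KRT19 and MUC1) and 2 lower (EPCAM and SOX9), and CFTR stayed under 10 counts in every library. EPCAM had -0.67 (SE 0.23, edgeR adjusted p = 0.0395), a call held in 5 of 16 alternatives. It was lost in DESeq2, in limma and with the replicate block, alone or with the GC-content offset, and had an adjusted p of 0.123, 0.0795 and 0.0663 without DKK1-SE+/+ replicates 1, 2 and 3 and of 0.0929 and 0.058 without DKK1-SE-/- replicates 1 and 2 (range 0.0265 to 0.123). SOX9 had -0.39 (SE 0.12, edgeR adjusted p = 0.0219), a call held in 12 of 16 alternatives and lost with the replicate block, with an adjusted p of 0.0959 and 0.105 without DKK1-SE+/+ replicates 2 and 3 and of 0.0911 without DKK1-SE-/- replicate 2 (range 0.003 to 0.105). The summed TPM of the duct markers was 1909, 1962.5 and 2004.5 in DKK1-SE+/+ libraries against 3216.5, 3158 and 2725.5 in DKK1-SE-/- libraries, and KRT8 was the most abundant. KRT7, KRT8, KRT18, KRT19, EPCAM and MUC1 are also on the epithelial list. The 7 acinar markers stayed under 10 counts with a summed TPM of at most 0.37, CTRB1 being the most abundant. Of 6 endocrine markers, 5 stayed under 10 counts, with insulin (INS) at 0, and the summed TPM was 4.85, 6.55 and 4.91 in DKK1-SE+/+ libraries against 6.78, 6.66 and 5.09 in DKK1-SE-/- libraries, most of it SYP.

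Fibroblast markers had a summed TPM of 5.47, 4.26 and 6.23 in DKK1-SE+/+ libraries against 6.29, 9.21 and 6.64 in DKK1-SE-/- libraries. THY1 was the most abundant, FAP was at 0 in every library, and of 2 tested genes COL3A1 was higher (beside 19.8% of all tested genes, log2 fold change 1.42). Endothelial markers had a summed TPM of 2.62, 2.57 and 2.43 in DKK1-SE+/+ libraries against 0.580, 0.680 and 0.620 in DKK1-SE-/- libraries, most of it KDR (log2 fold change -2.49), and the other 5 stayed under 10 counts. Immune markers had a summed TPM of 43.9, 41.2 and 47.0 in DKK1-SE+/+ libraries against 69.2, 66.6 and 68.7 in DKK1-SE-/- libraries, most of it CD68, a lysosomal protein. Both tested genes were higher (beside 19.8% of all tested genes), CD68 (0.76) and CD14 (1.76), and the other 4, with PTPRC, a marker of leukocytes, stayed under 10 counts. The part of other cell types in the results was not tested.

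The 5 genes whose log2 CPM over the 6 libraries, centred on the DKK1-SE+/+ mean, was most like that of CDH2 by root mean square distance were COL7A1 (0.152), NCKAP5 (0.221), IFIT1 (0.222), PTPRG (0.249) and OASL (0.251). COL7A1, an anchoring fibril collagen, had a CPM of 88.2 ± 4.44 in DKK1-SE+/+ and 6.795 ± 0.623 in DKK1-SE-/- cells (SD, n = 3). PTPRG, a receptor tyrosine phosphatase, had 41.3 ± 1.74 and 3.61 ± 0.875 (CPM, SD, n = 3). IFIT1 and OASL are interferon-stimulated genes, with log2 fold changes of -3.68 (SE 0.19) and -4.05 (SE 0.24). They were picked for this pattern, so it is a description.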

How the data were processed

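RNA from PANC-1 cells was made into stranded mRNA libraries and sequenced by a service provider. The authors' deposited table gives, per gene and library, an expected count and TPM, and per gene a length. The aligner and counting program are not given in the sources used here; the build in the submitters' processing notes is hg38. Of the nonzero deposited counts, 32.3% were not whole, and counts were rounded to whole numbers. The authors' comparison columns (group mean TPM, fold change, log2 fold change, p-value and adjusted p-value) were not used.

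Genes were filtered with filterByExpr (minimum count 10), normalized by TMM and compared by the quasi-likelihood F test of edgeR 4.0.16 in R 4.3.3, with Benjamini-Hochberg adjustment over 15179 genes. The study stated its limit of 1.2 for DEGs as a fold change; here it was applied on the log2 scale, with the linear scale as an alternative. SE is the size of the log2 fold change over the square root of F. Alternatives were DESeq2 1.42.0, limma 3.58.1 on log2 TPM, RLE, library size alone, no filter, a replicate block, a GC-content offset (40 bins) and each library left out. Positions and GC content came from GENCODE 44 and promoters from RefSeq. The fits were tested on simulated data.

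The members and lists were chosen with earlier results of these data known. Named genes were the 10 members, in each list the 2 higher and 2 lower called genes with the smallest p and the gene with the highest mean TPM, the 5 genes most like CDH2, genes overlapping a member, marker genes, and DKK1. The other genes named were chosen after their values were seen. Values of some list genes are not reported here.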

Additional observations from a re-analysis of the deposited data

How the results depend on the processing

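Over 16 alternatives the log2 fold change of CDH2 ran from -3.97 to -3.11. It was -3.71 with the GC-content offset, with or without the replicate block, and -3.11 in limma on log2(TPM + 1), with or without a filter on mean TPM. With a library left out it ran from -3.97 to -3.78. CDH1, CDH3, VIM, ZEB1 and SNAI2 kept their direction and their side of the threshold in all 16. FN1 lost its call in the 3 limma fits and SNAI1 in 5 alternatives. ZEB2 changed direction in limma (-0.09, -0.12 with a pseudocount of 0.1 and -0.09 with the TPM filter), and was -0.03 without DKK1-SE+/+ replicate 3 and -0.18 without DKK1-SE-/- replicate 3, within -0.18 to 0.25 with a library left out.

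Members other than CDH2 called higher were 1 in the 3 limma fits, 4 without a filter and 4 with the GC-content offset, and 2 to 3 with a library left out. TWIST1 had an adjusted p of 0.0266 without a filter and 0.0961 in DESeq2. Higher DEGs were 0 in limma (1 with a pseudocount of 0.1). Read as a linear fold change, 1.2 gave 3 higher and 2 lower DEGs other than CDH2, beside 24.3% and 23.3% of all tested genes. Lower DEGs other than CDH2 were 0 in place of 1 (ZEB1) with the GC-content offset, with or without the block, and in limma on log2(TPM + 1) with or without the TPM filter, and 0 to 1 with a library left out. With CDH2, whose value is no test, these are 1 and 1 to 2. The limma fits moved the median of all genes from 0.03 to -0.08, -0.11 and -0.11. Over all genes they called 1491, 1493 and 1217 higher, beside 3013 in the main fit. Without a filter 3298 of 31045 genes were higher, and with the GC-content offset 3034 of 15179. Higher DEGs over all genes were 174, 544 and 191 in the limma fits, beside 753 in the main fit. Lower DEGs were 338, 691 and 353 there and 509 with the offset, beside 561.

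Other cadherins called higher were 5 without a filter, 1 with the replicate block, the GC-content offset, both, or limma, and 1 to 2 with a library left out. Catenins called lower were 2 with library size alone or with offset and block, 3 with the offset and in limma, and 1 to 4 with a library left out. Epithelial genes called lower were 5 in limma with the TPM filter and 4 to 9 with a library left out. Epithelial regulators called higher were 0 in limma, and those called lower 2 with library size alone, 3 with the offset, 2 with offset and block, and 0 to 2 with a library left out. Other EMT factors called higher were 2 with the offset, with or without the block. Mesenchymal genes called higher were 6 in limma with the TPM filter. TGF-beta genes called higher were 0 in limma and 1 to 3 with a library left out, and those called lower 2 to 4. Calls over all genes moved too. Higher and lower were 1217 and 2373 of 13675 in limma with the TPM filter. They were 1491 and 2670 of 15179 with limma on log2(TPM + 1), and 3298 and 3247 of 31045 without a filter. With the offset they were 3034 and 3183, with the block 2404 and 2577, and with library size alone 2497 and 3240. With a library left out they ran from 2001 to 3703 and from 2055 to 3855. The list counts are not read beyond this, and the causes were not tested.

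The share of CDH2 among cadherins was 63.6% and 7.76% in TPM, 78.2% and 12.4% in CPM, and 75.6% and 10.9% in CPM per kb. Medians of neighbours within 1 and 10 Mb were -0.81 and -0.20 for FN1, 0.14 and -0.50 for ZEB2, and 0.45 and 0.45 for SNAI1, with -0.13 within 10 Mb for SNAI2 and -1.26 within 1 Mb for TWIST1. Within 1 Mb, the ZEB2 value rests on 1 gene, that of TWIST1 on 2 and that of FN1 on 9, and CDH2 gave no value.

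Deviations of same-numbered libraries had correlations of -0.12, -0.07 and -0.11, beside -0.05 to 0.15 for the other pairs. Each deviation was taken from the mean of its group of 3, which ties these values together. They therefore cannot show whether same-numbered libraries were prepared together. With the replicate block, CDH2 was at -3.85, and 2404 genes were higher and 2577 lower. CDH1 had 20 to 48 counts a library, which left an interval of -1.13 to 0.27.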

Other observations

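Some genes near the members were picked after their values were seen, most of them for the size of their change. Near CDH2, LAMA3, which encodes a laminin chain of epithelial basement membranes, went from a mean TPM of 0.02 to 1.94. DSC3, a desmosomal cadherin gene, went from a mean TPM of 0.01 to 0.407. Both were barely detected in DKK1-SE+/+ cells, so no exact fold is given. DSC2, which lies beside DSC3, went from 9.19 to 2.47. Near SNAI1, where most genes were higher, PTGIS, the prostacyclin synthase gene, had a log2 fold change of -5.37. Near FN1, IGFBP2, an insulin-like growth factor binding protein gene, went from a mean TPM of 84.9 to 8.36, the opposite direction to FN1. Near ZEB1, APBB1IP had a log2 fold change of -3.38.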
